A study of Mus musculus with 4 samples.

Results

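Platelet-derived growth factor (PDGF) signalling and the Leydig progenitor lineage were examined through 8 genes, chosen by name: the ligands Pdgfa, Pdgfb, Pdgfc and Pdgfd, the receptors Pdgfra and Pdgfrb, and the progenitor genes Tcf21 and Nes. Each was read by 1 probe set that carries no other gene's symbol, so all 8 were measured, among 19938 genes in all. The arrays held total RNA of whole testis from male mice, 2 Lhcgr KO and 2 control WT samples, labelled with biotin and read in 1 colour on Affymetrix whole-transcript arrays. Lhcgr encodes the receptor of luteinizing hormone. All 4 samples came from mice given 44 mg/kg of busulfan, an alkylating drug that depletes germ cells, and taken 4 weeks later, so the control WT testes were treated too. The labels give no age, no strain background and no description of the KO allele, and do not say whether replicates were separate animals. The p-values therefore speak to variation among these 4 arrays, part or all of which may be technical.

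PDGF ligands are secreted as dimers that bind and pair receptor tyrosine kinases. PDGF-A and PDGF-C act mainly through the alpha receptor, while PDGF-B and PDGF-D act through the beta receptor, with PDGF-B binding both. In the developing mouse testis, Sertoli cells make PDGF-A and interstitial cells carry the alpha receptor, and adult Leydig cells fail to form properly in mice without PDGF-A. In adult testis PDGFRA, TCF21 and nestin are used as markers of interstitial stem and progenitor cells, although all are also found in other mesenchymal or vascular cells.

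Medians of the 4 arrays ran from 198.3 to 215.1 intensity units over 28856 probe sets. The genotype labels could not be checked on Lhcgr itself, which is not analysed here. Of 8 measured adult Leydig cell markers, 6 fell in Lhcgr KO testes and 0 rose (limma, Benjamini-Hochberg adjusted p under 0.05). They were Hsd3b6, Sult1e1, Ptgds, Ces1d, Star and Cyp11a1, and of these Ptgds and Sult1e1 did not pass with a trended, robust variance prior (adjusted p = 0.192 and 0.241). Leaving out either Lhcgr KO array left few calls over all genes, 2 higher and 16 lower without replicate 1 and 2 higher and 21 lower without replicate 2, so a call lost there says little of the gene itself. Hsd3b6 and Ces1d kept theirs. The control WT arrays differed from each other in Sult1e1 (1985 and 282 intensity units) and Ptgds (2645 and 632). A gap between them as large was found in 0.16% of genes for Sult1e1 and 0.32% for Ptgds. Epididymis markers also set control WT replicate 2 apart. There 4 of 9 such markers lay more than 1 log2 unit above every other array, and Adam7, an epididymal gene picked after its values were seen, had 11.04 log2 units there against at most 5.92 on the other arrays. The differences of Pdgfa, Pdgfb, Nes, Plau and Erbb3, all with their highest value on that array, are also given without it. Other genes named below were highest there too, among them Vegfd and Csf1r, with log2 differences of -1.82 and -0.88 without that array.

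None of the 8 genes passed the test between Lhcgr KO and control WT testes. Their log2 differences, Lhcgr KO minus control WT, ran from -0.47 for Pdgfd to 0.48 for Pdgfra, with a median of -0.08, against a median of 0.07 over all genes. The limma test called 0 of 8 at an adjusted p under 0.05, where it called 3.1% of all genes, 0.963% higher and 2.14% lower. The test with a trended, robust variance prior called 1 of the 8, Pdgfra. That prior called more genes in general, 361 higher and 674 lower of all 19938, against 192 and 426 in the main test. At an unadjusted p under 0.05, 2 of the 8 were higher and 1 was lower in Lhcgr KO testes, where 12.9% of all genes were higher and 9.78% lower. Both Lhcgr KO arrays lay above both control WT arrays for 2 of the 8 and below them for another 2. The same held for 36.8% of all genes above and 22.4% below, so the counts are close to what all genes gave. With 2 arrays a group, a change had to be sizeable to pass: the smallest called anywhere was 0.56 on the log2 scale.

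**Figure D1:**
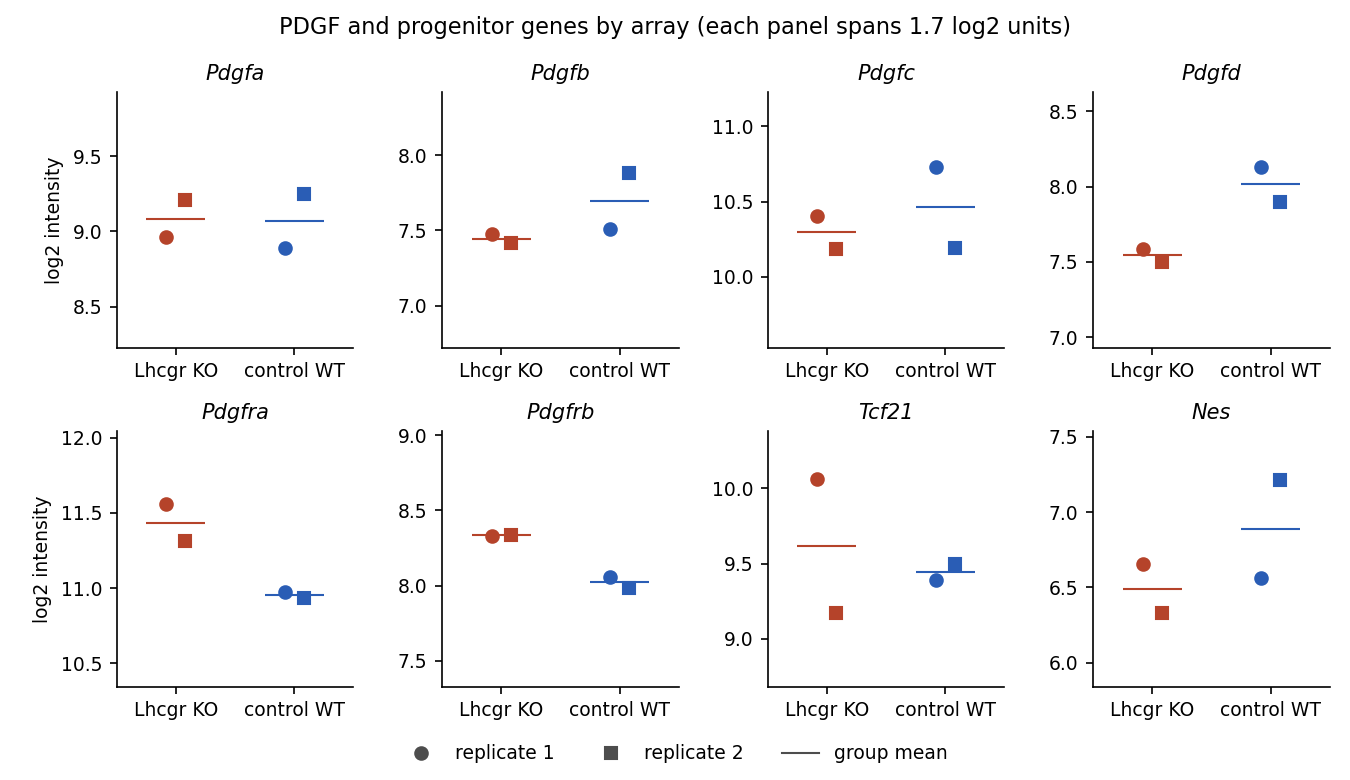
Log2 intensity of each of the 8 genes on the 4 arrays, with Lhcgr KO (red) left of control WT (blue), circles for replicate 1, squares for replicate 2 and a line at each group's mean. The groups separate for Pdgfra, Pdgfrb, Pdgfd and, narrowly, Pdgfb, while Tcf21 has its highest and its lowest value within the Lhcgr KO pair.

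Both receptors read higher on the Lhcgr KO arrays. Pdgfra (probe set 10522503), the alpha receptor, had intensities of 3023 and 2539 in Lhcgr KO testes, against 2008 and 1956 in control WT testes. The lower Lhcgr KO array stood clear of the higher control WT array, and the control WT pair was almost identical. The difference was 0.48 ± 0.13 log2 units (SE, n = 2 per group), a ratio of 1.40 with a 95% confidence interval of 1.13 to 1.73, and it missed the threshold (limma adjusted p = 0.109). It passed with the trended, robust prior (adjusted p = 0.0392) and under none of the other 10 alternatives, with differences from 0.36 without Lhcgr KO replicate 1 to 0.61 without Lhcgr KO replicate 2.

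Pdgfrb (probe set 10456046), the beta receptor of pericytes and other perivascular cells, had intensities of 322.3 and 322.9 in Lhcgr KO testes, against 266.5 and 253.3 in control WT testes. The Lhcgr KO arrays hardly differed, 99.0% of genes having a gap at least as large, and both were above both control WT arrays. The ratio was 1.24 (95% interval 1.04 to 1.49), a log2 difference of 0.31 ± 0.11 that did not pass (limma adjusted p = 0.174). Leaving out any 1 array gave values between 0.28 and 0.35. Set against the median of all genes, the log2 difference was 0.41 for Pdgfra and 0.24 for Pdgfrb. In whole testis, more cells of a type and more RNA per cell cannot be told apart.

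The bases upstream of the transcription start are shown for the genes with the lowest p in each direction, Pdgfra and Pdgfd, and for Pdgfc, which holds the less common of the motifs searched. Sequences are RefSeq's on build GRCm38.p6, 250 bases each, 5′ to 3′ on the gene's strand, and 6 of the 8 genes had an entry. Capitals mark an E-box (CANNTG), the class of site that basic helix-loop-helix factors such as TCF21 bind, or a CArG box, the site of serum response factor, through which growth factors including PDGF induce early genes. Each motif reads the same on both strands, and no matches of the pair overlapped.
Pdgfra, chr5:75152001-75152250, plus strand: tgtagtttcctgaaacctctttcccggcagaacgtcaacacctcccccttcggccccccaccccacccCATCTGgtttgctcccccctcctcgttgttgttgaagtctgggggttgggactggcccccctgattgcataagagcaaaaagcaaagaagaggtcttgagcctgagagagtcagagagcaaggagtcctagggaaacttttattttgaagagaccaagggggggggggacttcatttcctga
Pdgfd, chr9:6168236-6168485, plus strand: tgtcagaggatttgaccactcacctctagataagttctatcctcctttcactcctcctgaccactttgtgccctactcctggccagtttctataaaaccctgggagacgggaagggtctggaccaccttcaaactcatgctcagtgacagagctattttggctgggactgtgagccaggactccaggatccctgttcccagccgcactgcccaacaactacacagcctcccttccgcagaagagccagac
Pdgfc, chr3:81036166-81036415, plus strand: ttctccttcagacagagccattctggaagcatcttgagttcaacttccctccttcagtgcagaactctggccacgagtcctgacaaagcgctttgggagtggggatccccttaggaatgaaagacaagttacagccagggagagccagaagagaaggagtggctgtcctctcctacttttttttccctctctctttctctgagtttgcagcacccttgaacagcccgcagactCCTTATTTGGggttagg
The Pdgfra window holds 1 E-box, 182 to 177 bases before the start, and was the only window of the 6 genes with one, whereas 66.2% of all 32851 promoter windows of this length hold one. The Pdgfc window holds a CArG box 17 to 8 bases before the start, which 1.47% of all windows do. The Pdgfd window holds neither. These are matches of letters within the windows and say nothing of binding.

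Among the ligands, Pdgfd alone had an interval clear of 0. Pdgfd (probe set 10583021), a ligand activated by proteolysis, had intensities of 192.2 and 181.2 in Lhcgr KO testes, against 280.7 and 238.2 in control WT testes. Both Lhcgr KO arrays lay below both control WT arrays. The Lhcgr KO to control WT ratio was 0.722 (95% interval 0.584 to 0.892), a log2 difference of -0.47 ± 0.13 (SE, n = 2 per group) that did not pass (limma adjusted p = 0.113). Over all 11 alternatives it stayed negative, between -0.59 and -0.35, and never passed.

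Pdgfb (probe set 10430660), the main ligand of the beta receptor and a product of endothelial cells, had intensities of 177.8 and 171.0 in Lhcgr KO testes, against 182.0 and 235.8 in control WT testes. The groups were separated by the narrow gap to control WT replicate 1, and the high value was that of replicate 2. The log2 difference was -0.25 ± 0.15 (limma adjusted p = 0.340), and it was -0.06 without control WT replicate 2 and -0.44 without control WT replicate 1. That array was also the one with epididymal signal, whose part in the value was not tested beyond leaving the array out.

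Pdgfc (probe set 10492689), a ligand of the alpha receptor, had intensities of 1358 and 1162 in Lhcgr KO testes, against 1702 and 1169 in control WT testes. The groups overlapped, and the control WT arrays differed from each other by more than the groups did. The log2 difference was -0.17 ± 0.19 (limma adjusted p = 0.602), with a sign that turned to 0.10 without control WT replicate 1. A gap between the control WT arrays as large as that of Pdgfc was found in 3.87% of genes.

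Pdgfa (probe set 10535043) is the ligand that Sertoli cells send to interstitial cells in the developing testis. Its intensities were 499.4 and 590.7 in Lhcgr KO testes, against 474.6 and 608.1 in control WT testes. The control WT pair enclosed the Lhcgr KO pair. Here the log2 difference was 0.02 ± 0.16 (limma adjusted p = 0.958), and its interval of -0.37 to 0.40 does not exclude a ratio as low as 0.775 or as high as 1.32. The sign was negative with array medians set equal (-0.049), without Lhcgr KO replicate 2 (-0.11) and without control WT replicate 1 (-0.16). Without control WT replicate 2, the array with the highest Pdgfa value, the difference was 0.19.

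**Figure D2:**
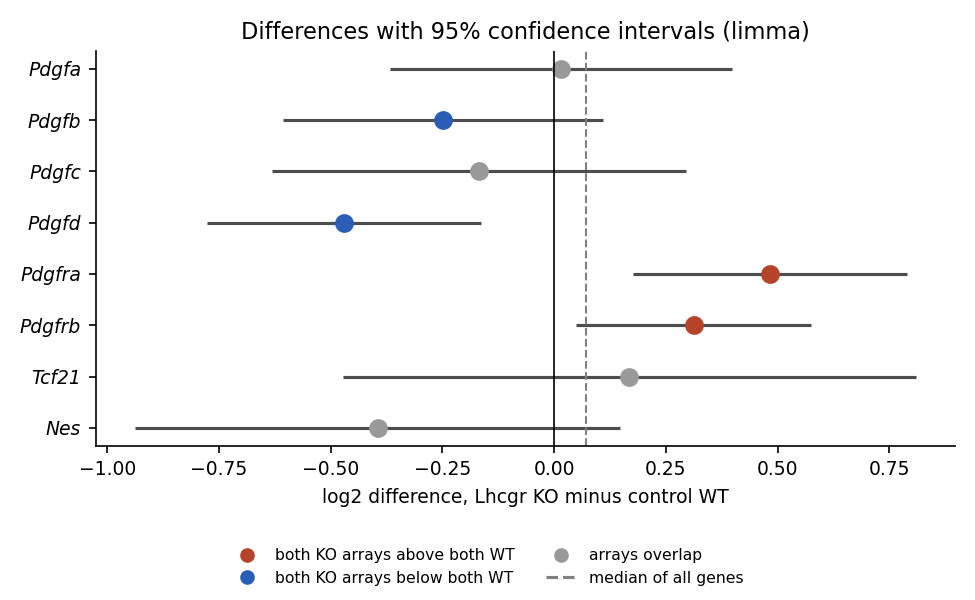
Log2 difference of each gene, Lhcgr KO minus control WT, with its 95% confidence interval from limma. Red points mark genes with both Lhcgr KO arrays above both control WT arrays, blue points the reverse and grey points overlap, and the dashed line is the median of all genes at 0.07. Unadjusted intervals of Pdgfra, Pdgfrb and Pdgfd exclude 0.

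The progenitor genes showed wide gaps within a group. Tcf21 (probe set 10368240), a basic helix-loop-helix factor that represses Leydig fate genes in the mouse fetal gonad, had intensities of 1067 and 576.6 in Lhcgr KO testes, against 672.7 and 724.2 in control WT testes. The Lhcgr KO arrays enclosed the control WT pair, with the highest and the lowest value of the 4. The log2 difference of 0.17 ± 0.27 (SE, n = 2 per group, limma adjusted p = 0.710) was 0.61 without Lhcgr KO replicate 2 and -0.28 without Lhcgr KO replicate 1, so its direction rested on 1 array. The Lhcgr KO arrays differed by 0.89 log2 units in Tcf21, where the median gap over all genes was 0.14 and 0.336% of genes had a gap as large.

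Nes (probe set 10493114) encodes nestin, an intermediate filament protein of progenitor cells and of vascular cells. It had intensities of 100.5 and 80.5 in Lhcgr KO testes, against 94.3 and 148.5 in control WT testes. Only control WT replicate 2 stood out, and the groups overlapped. The log2 difference was -0.40 ± 0.23 (limma adjusted p = 0.323). Without control WT replicate 2 it was -0.07, and without control WT replicate 1 it was -0.72 (limma adjusted p = 0.0604). The gene was among the lowest 25% of genes by mean signal, and folds there are compressed if the floor of about 16 units seen on every array is an added amount. With 32 more units added before the log2 step, its difference was -0.31.

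**Figure D3:**
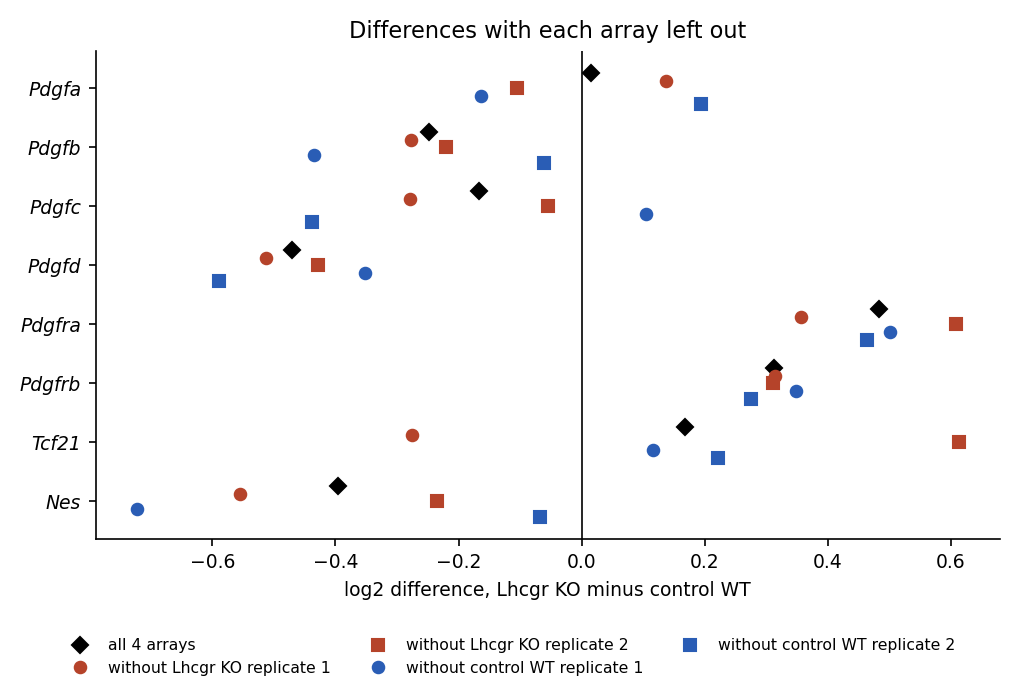
Log2 difference of each gene, Lhcgr KO minus control WT, over all 4 arrays (black diamond) and with 1 array left out, red for a Lhcgr KO array and blue for a control WT array, circles for replicate 1 and squares for replicate 2. Pdgfra, Pdgfrb, Pdgfd, Pdgfb and Nes keep their side of 0 in all cases shown, while Pdgfa, Pdgfc and Tcf21 cross it.

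Of the 8 genes Pdgfra had the lowest p, and the 3 genes nearest to it in pattern were Acrbp, Dchs1 and Peg3. Likeness was the root mean square difference of log2 values over the 4 arrays, each gene less its own mean, and came to 0.017 for Acrbp, 0.018 for Dchs1 and 0.023 for Peg3. Peg3, an imprinted zinc finger gene, had 10.71 and 10.41 log2 units in Lhcgr KO testes, against 10.11 and 10.03 in control WT testes. Dchs1 is a large protocadherin and Acrbp a protein of the sperm acrosome. None of the 3 passed the test either (limma adjusted p of 0.118 to 0.125), and 4 arrays can give likeness by chance among so many genes.

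Other genes of PDGF signalling were called about as often as genes in general, of which 3.1% passed. Of 6 genes that activate, hold or co-receive PDGF ligands, 0 passed (limma; 0 also at an unadjusted p under 0.05), and the list had a median log2 difference of -0.06. The lowest p-values were those of Lrp1, a co-receptor of the beta receptor, with 0.26 ± 0.11 (adjusted p = 0.222), and Plau, the urokinase that activates PDGF-D, with -0.34 ± 0.16 (adjusted p = 0.255). Plau had 7.60 and 7.47 log2 units in Lhcgr KO testes, against 7.67 and 8.09 in control WT testes, so the groups were separate by a narrow gap. The difference was -0.13 without control WT replicate 2 and -0.55 without control WT replicate 1. Among 24 measured transducers that bind or act just below the receptors, 1 rose, 0 fell and 23 did not pass, with a median of -0.10. The one that rose was Stat5b, a transcription factor activated by many cytokine and growth factor receptors. It had 9.89 and 9.85 log2 units in Lhcgr KO testes, against 9.13 and 9.19 in control WT testes. Its log2 difference was 0.71 ± 0.11 (limma adjusted p = 0.0251), and it hardly moved without Lhcgr KO replicate 1 (0.69, adjusted p = 0.177) or replicate 2 (0.73, adjusted p = 0.176), although it no longer passed. Without control WT replicate 1 the phosphatase gene Ptprj also passed, as lower.

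The nearest relatives of the family, class III and VEGF receptor tyrosine kinases with their ligands, counted 1 higher and 2 lower of 15 (median 0.04). Flt3, a receptor of blood progenitors, rose by 0.75 ± 0.12 log2 units (limma adjusted p = 0.0262), and passed narrowly after quantile normalization (0.0499). Its signal was low, with 7.66 and 7.83 log2 units in Lhcgr KO testes, against 6.98 and 7.00 in control WT testes. The 25th percentile of gene means was 6.78. Csf1r, the macrophage growth factor receptor, fell by 1.02 on the log2 scale (SE 0.13, limma adjusted p = 0.0151). Macrophage markers, of which 4 of 9 fell and 0 rose, had summed intensities of 3992 and 4274 in Lhcgr KO testes and 7167 and 8782 in control WT testes. Vegfd, which like Pdgfd is a protease-activated ligand of the wider family, had 7.64 and 6.84 log2 units in Lhcgr KO testes, against 9.06 and 9.67 in control WT testes. Vegfd fell by 2.13 on the log2 scale (SE 0.29, limma adjusted p = 0.0179), but did not pass with the trended, robust prior (0.0863). Without either Lhcgr KO array none of these 3 passed, nor did any macrophage marker, with differences for Vegfd of -2.53 without replicate 1 and -1.73 without replicate 2. Without control WT replicate 1, Kit also passed as higher, Kdr as lower and 7 macrophage markers as lower.

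Early genes that PDGF induces in fibroblasts counted 0 of 10 past the limma test, with a median of -0.01. At an unadjusted p under 0.05 there were 2 of the 10, where 12.9% of all genes were higher and 9.78% lower. Fos had 6.71 and 6.85 log2 units in Lhcgr KO testes, against 7.43 and 7.12 in control WT testes, a difference of -0.49 ± 0.14 (limma adjusted p = 0.129). Hbegf, an EGF family ligand, had a difference of 0.58 ± 0.18 (limma adjusted p = 0.149), and passed without control WT replicate 2 (0.85, adjusted p = 0.0217).

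Of 13 other stem and progenitor Leydig markers, 8 had a positive difference and 5 a negative one. None reached the threshold: 0 passed the limma test, and 7 had an unadjusted p under 0.05. At that unadjusted p, 12.9% of all genes were higher and 9.78% lower. With the trended, robust prior 3 passed, namely Eng, Gli1 and Thra, all higher, where 361 of all 19938 genes were higher. The list median was 0.30, against 0.07 over all genes, with 7 of the 13 separated upward and 4 downward, where 36.8% of all genes were separated upward and 22.4% downward. Gli1, the transcription factor that reports hedgehog signalling, had 8.52 and 8.34 log2 units in Lhcgr KO testes, against 7.86 and 7.79 in control WT testes. The difference was 0.60 ± 0.12 (limma adjusted p = 0.0545), just short of the threshold, which it crossed in 4 alternatives, among them quantile normalization (0.0447). Thra, a thyroid hormone receptor, had 0.61 ± 0.13 (limma adjusted p = 0.0675), and passed without control WT replicate 1 (0.0341). Picked after their values were seen, Nr2f2, the orphan receptor COUP-TFII of interstitial progenitors, had 0.33 ± 0.15 (adjusted p = 0.247), and Dlk1, a surface protein of immature Leydig cells, had 11.76 and 12.02 log2 units in Lhcgr KO testes, against 10.82 and 6.53 in control WT testes. The control WT arrays thus differed in Dlk1 by far more than in any of the 8 genes. Dlk1 passed without control WT replicate 2 (1.07, adjusted p = 0.0117) and without replicate 1 (5.36), and not over all 4 arrays (3.21 ± 1.18, adjusted p = 0.188). Among markers with a negative difference, Vcam1 had -1.04 ± 0.25 (limma adjusted p = 0.0915), and passed as lower with the replicate block. Nt5e had -0.42 ± 0.13 (limma adjusted p = 0.152). Lifr (-0.32) and Akr1c14 (-0.36) were separated downward too.

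**Figure D4:**
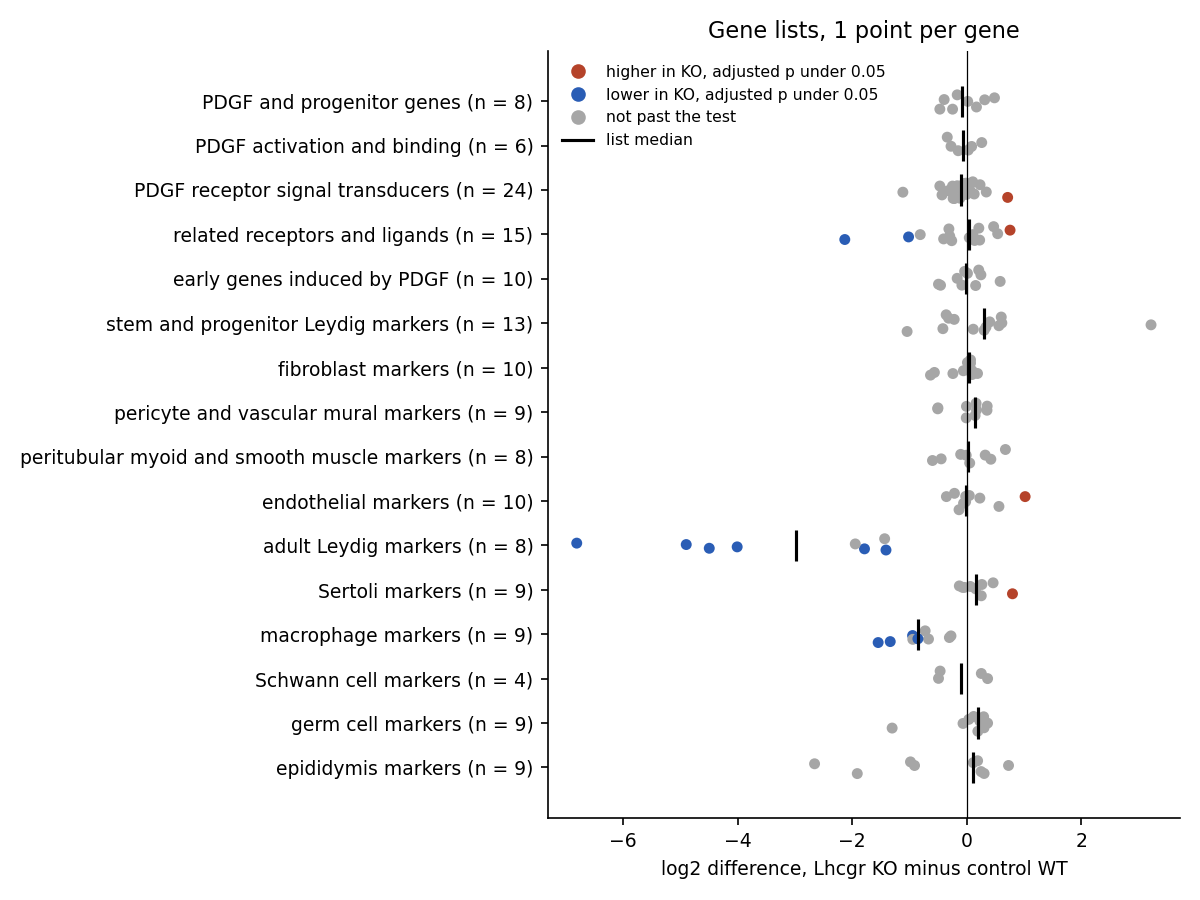
Log2 difference of every measured gene, Lhcgr KO minus control WT, for the 8 PDGF and progenitor genes and for the 15 other lists, 1 point per gene, with a bar at the list median. Red and blue points passed the limma test as higher or lower, and the 8 genes lie within 0.48 of 0, while adult Leydig markers reach -6.81.

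Cell types known to express these genes were followed through their markers. Beside each list's count at an unadjusted limma p under 0.05 stand 12.9% of all genes higher and 9.78% lower. Fibroblasts express Pdgfra, and their markers had 0 of 10 past the test (limma; 1 at an unadjusted p under 0.05) and summed intensities of 12655 and 12695 in Lhcgr KO testes and 12571 and 13317 in control WT testes. Their median log2 difference was 0.04, with 6 of the 10 positive. Lum, a matrix proteoglycan, had -0.63 ± 0.14 (adjusted p = 0.0730) and passed as lower with array medians set equal (0.0389) and with the trended, robust prior, and Fbln1, a matrix protein, had -0.24 ± 0.12 (adjusted p = 0.275). Pericytes and vascular mural cells express Pdgfrb and Nes, and their markers had 0 of 9 past the test (limma; 4 at an unadjusted p under 0.05) and summed to 2027 and 1842 in Lhcgr KO testes and 2124 and 1998 in control WT testes. The median log2 difference of this list was 0.14, with 5 of the 9 positive. Cspg4, the proteoglycan NG2, had 0.36 ± 0.11 (limma adjusted p = 0.151) and Des, desmin, had -0.50 ± 0.17 (limma adjusted p = 0.159). Peritubular myoid and smooth muscle markers had 0 of 8 past the test (limma; 5 at an unadjusted p under 0.05), with Actg2 at -0.60 ± 0.13 (adjusted p = 0.0693) and Myh11 at 0.67 ± 0.17 (adjusted p = 0.0971). Actg2 passed as lower after quantile normalization (0.0497), with array medians set equal (0.0375) and with the trended, robust prior (0.0406), under which Myh11 passed as higher (0.0478). Their median log2 difference was 0.02, with 4 of the 8 positive. Their summed intensity was 8125 and 6620 in Lhcgr KO testes and 6110 and 6005 in control WT testes. That sum leaned on Acta2, the gene of the list with the most signal (12.37 and 12.12 log2 units against 11.94 and 11.91). The highest sum was on the array where Pdgfra and Tcf21 were also highest.

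Endothelial markers, whose cells make Pdgfb, counted 1 higher and 0 lower of 10, and summed to 3371 and 3413 in Lhcgr KO testes and 2983 and 2723 in control WT testes. Their member that rose was the transcription factor Sox18 (1.02 ± 0.14, limma adjusted p = 0.0181), which did not pass without either Lhcgr KO array, with differences of 1.18 (adjusted p = 0.0890) and 0.85 (adjusted p = 0.145). The list median was -0.02, with 4 of the 10 positive. Sertoli markers, whose cells make Pdgfa in the developing testis, counted 1 higher and 0 lower of 9. The gene called was the hormone gene Amh (0.80 ± 0.14, limma adjusted p = 0.0398). Amh still passed without control WT replicate 2 and lost the call without each of the other arrays. Its differences with 1 array left out ran from 0.68 to 0.92. Schwann cell markers had 0 of 4 past the test (limma; 1 at an unadjusted p under 0.05), with Sox10 at 0.36 ± 0.11 (adjusted p = 0.142) and Erbb3 at -0.49 ± 0.30 (adjusted p = 0.339). Erbb3, like Nes, was highest on control WT replicate 2, with a difference of -0.06 (adjusted p = 0.911) without that array. Without control WT replicate 1 it had -0.92 (adjusted p = 0.0481), and it and Cdh19 passed as lower. Germ cell markers had 0 of 9 past the test (limma; 3 at an unadjusted p under 0.05), with Dazl at 0.36 ± 0.12 (adjusted p = 0.161) and Zbtb16 at -1.30 ± 0.47 (adjusted p = 0.183). Zbtb16 had 8.38 and 6.73 log2 units in Lhcgr KO testes, against at least 8.71 in control WT testes. The lowest value was on Lhcgr KO replicate 2, where Tcf21 was also lowest but Dazl was highest. Epididymis markers had 0 of 9 past the test (limma; 1 at an unadjusted p under 0.05) and summed to 850 and 919 in Lhcgr KO testes and 742 and 4734 in control WT testes, with Cst11 at 0.73 ± 0.18 (adjusted p = 0.0923) and Lcn9 at 0.30 ± 0.14 (adjusted p = 0.245). Without control WT replicate 1, 4 of them passed as lower and 1 as higher. The adult Leydig markers summed to 3808 and 3040 in Lhcgr KO testes and 24210 and 13329 in control WT testes. The part of any of these cell types in the values of the 8 genes was not tested.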

How the data were processed

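The deposited table holds 1 linear intensity per probe set and array, with no value below 16. The labels' protocols give sense-strand cDNA labelled with biotin, and the submitters' processing notes name mm9. How the authors summarised, background-corrected and normalized these intensities is not given in the sources used here. Of 28856 probe sets, 21789 had 1 gene symbol, 1621 several and 5446 none listed. By Entrez number, 21698 matched RefSeq genes (GRCm38.p6), used for names only, and 0 symbols changed. The highest-mean probe set was taken for each of 19938 genes, 999 of which had several. No detection calls were used.

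Deposited intensities were taken to log2 and fitted with limma 3.58.1 in R 4.3.3 (lmFit, eBayes, no covariates, two-sided p, Benjamini-Hochberg over all genes, threshold 0.05). The prior had 4.65 degrees of freedom beside 2 residual ones. An exact permutation of 2 against 2 cannot give a p below 0.333. On simulated arrays of 19938 genes, 76 of 100 changes of 1 log2 unit and 100 of 100 of 2 log2 units were recovered.

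The 8 genes, the 15 lists (153 genes measured) and the tests were chosen with earlier results of these data known. Genes named were all 8, up to 4 called per list by size or else the 2 with the lowest p, and the 3 nearest in pattern to the lead gene. Star, Cyp11a1, Adam7, Dlk1, Nr2f2, Nt5e, Lifr, Akr1c14 and Acta2 were picked with their values in view. So were the genes named only because an alternative called them (Ptprj, Kit, Kdr, Eng, Vcam1, Cdh19). The number of arrays limits precision. Alternatives were 2 scalings, a filter, an added 32, averaged probe sets, another prior, each array left out and a replicate block.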

Additional observations from a re-analysis of the deposited data

How the results depend on the processing

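Of 87 values of the 8 genes under 11 alternatives, 81 kept their sign and their side of the threshold. Pdgfra passed with the trended, robust prior (0.48, adjusted p = 0.0392), making 1 of the 8 called higher there. Pdgfa turned to -0.049 after median centring. With 1 array left out, log2 differences ran from -0.16 to 0.19 for Pdgfa, -0.44 to -0.06 for Pdgfb, -0.44 to 0.10 for Pdgfc, -0.59 to -0.35 for Pdgfd, 0.36 to 0.61 for Pdgfra, 0.28 to 0.35 for Pdgfrb, -0.28 to 0.61 for Tcf21 and -0.72 to -0.07 for Nes. The cause of these changes was not tested. Nes was among the genes removed by the filter and has no value there. Over the 15 other lists, 4 genes were higher and 12 lower with all arrays. With the trended, robust prior 10 were higher, and with 1 array left out 0 to 8 were higher and 2 to 25 lower. Over all genes, 192 were higher and 426 lower, against 361 and 674 with that prior, 2 and 16 without Lhcgr KO replicate 1, 2 and 21 without Lhcgr KO replicate 2, and 313 and 726 without control WT replicate 1. Deviations of same-numbered arrays correlated at 0.021 over all genes, which gave no sign of pairing but cannot exclude it with 2 arrays a group. With the replicate block 0 of the 8 genes passed, Pdgfra at a limma adjusted p of 0.125 and Pdgfd at 0.123. Calls over all genes were then 173 higher and 399 lower. Under the block Amh lost its call (adjusted p = 0.0631) and Vcam1 passed as lower. Depth cannot be given for arrays.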
